A study of Mus musculus with 12 samples.

Results

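Levels are reported for 10 genes that encode the CD3 chains (Cd3d, Cd3e, Cd3g, Cd247), the coreceptors (Cd4, Cd8a, Cd8b1) and the surface antigens Cd2, Cd5 and Thy1. They were chosen by symbol, without regard to their values, and all 10 were present among the 52535 genes of the count files. RNA came from 3 mouse T-ALL (T-cell acute leukemia/lymphoma) cell lines, named 240, 242 and 352. Every line carries Dlx5, a homeobox gene, and a myristoylated, constitutively active Akt2 kinase, both expressed in immature T cells from the Lck promoter, so the controls carry both transgenes too. Each line was grown from the thymic lymphoma of a different double transgenic mouse, and whether a line is a single clone is not given in the sources used here. Each was sequenced once as a control, which the study describes as placebo-treated, and once after PKF118-310, a small molecule that interferes with the binding of β-catenin to Tcf/Lef factors. This gives 3 libraries per group and 2 per line. Normal thymocytes were not analysed here. Each line has 1 library per group, so p-values rest on the spread among these 6 libraries. By their labels, both files of each library are sequencing lanes, so they were summed, but legends to the study's heatmaps mention separate cultures for each line and group. If the files are cultures and not lanes, the sums hide the spread between them.

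Summed counts per library ran from 604984 to 13766638. The treated library of line 242 was the shallowest and stood apart: 11.8% of its counts were mitochondrial, against 1.84% to 3.10% in the other 5 libraries, and it had counts for more genes (21241) than any other library. Values that rest on it are therefore given with and without it. More genes had a count after PKF118-310 in the other lines too: 18155 against 15150 in line 240, and 21049 against 17495 in line 352. Levels are in CPM, counts scaled to a common library size by the TMM method, and are divided by exon length in kb where genes are compared with each other. A count of 0 allows up to 3 counts, which is 0.210 to 0.957 CPM in 5 libraries and 5.57 CPM in the treated library of line 242.

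The CD3δ, CD3ε, CD3γ and CD3ζ chains carry no antigen specificity of their own. They assemble with the T-cell receptor and pass its signal into the cell through tyrosine motifs that are phosphorylated by Lck. CD4 and CD8, a dimer of α and β chains, bind MHC molecules and bring Lck to the receptor. In the thymus, progenitors pass from a CD4-CD8- (double-negative) stage, where the β chain of the receptor pairs with the pre-T α chain, through a CD4+CD8+ (double-positive) stage to CD4+ or CD8+ (single-positive) cells. Thy1 is present on mouse thymocytes at nearly every stage, while CD5 is raised by receptor signals. The labels call the lines double positive.

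Cd3d, Cd3g and Cd3e lie in a cluster on chromosome 9 (mm10), with Cd3d at 44981786 to 44987339 on the forward strand, Cd3g at 44969572 to 44980431 and Cd3e at 44998740 to 45009627, both on the reverse strand. Cd3d and Cd3g point away from each other, with starts 1355 bases apart. The upstream sequences of the cluster were chosen for display after its values with PKF118-310 were known. The 250 bases before each gene's start are from RefSeq (GRCm38.p6). The RefSeq start of Cd3e lies within the span given above, so its sequence overlaps that span. Capitals mark CTTTGA, the core of the Tcf/Lef motif, or TCAAAG, its reverse complement.
Cd3d, chr9:44981536-44981785, forward strand: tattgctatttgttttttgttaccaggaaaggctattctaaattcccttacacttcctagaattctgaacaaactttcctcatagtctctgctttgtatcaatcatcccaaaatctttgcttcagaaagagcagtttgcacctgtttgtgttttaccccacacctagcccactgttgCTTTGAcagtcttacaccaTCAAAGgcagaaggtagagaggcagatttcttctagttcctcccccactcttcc
Cd3g, chr9:44980432-44980681, reverse strand: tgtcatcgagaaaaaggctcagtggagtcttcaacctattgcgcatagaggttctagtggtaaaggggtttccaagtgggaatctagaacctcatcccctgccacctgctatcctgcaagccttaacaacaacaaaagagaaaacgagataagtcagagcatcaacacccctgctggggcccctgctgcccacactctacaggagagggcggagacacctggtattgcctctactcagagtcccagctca
Cd3e, chr9:45009612-45009861, reverse strand: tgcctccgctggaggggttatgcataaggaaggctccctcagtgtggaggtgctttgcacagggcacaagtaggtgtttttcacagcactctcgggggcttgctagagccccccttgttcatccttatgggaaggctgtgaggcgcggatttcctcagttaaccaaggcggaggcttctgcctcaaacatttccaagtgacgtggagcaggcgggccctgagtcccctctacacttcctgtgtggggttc
The Cd3d sequence held CTTTGA once on each strand, with the occurrences beginning 73 and 54 bases before the start. The motif was at 0 positions in the sequences of Cd3g and Cd3e, and also in those of Cd247, Cd8a and Cd5. Over 32851 promoters of the same length, 13.8% held CTTTGA on either strand. CANNTG, the E-box, was found in all 6 of these sequences and in 66.2% of all promoters. GGAAG, the Ets core, was found in 5 of the 6 (not in Cd3g) and in 64.1% of all promoters. These are matches of letters in a fixed window, and overlaps between motifs were allowed. Binding at these sequences was not examined here, and a link between the motifs and the members' values was not tested. Cd4, Cd8b1, Cd2 and Thy1 have no entry in the promoter table.

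Per kb of exon, Thy1 was the most abundant of the 10 genes, with a mean over the 6 libraries of 384 CPM per kb and a range of 260 to 464. Cd8a followed at 187 (111 to 294) and Cd8b1 at 137 (58.4 to 214). The CD3 genes came next, with Cd3d at 101 (55.2 to 165), Cd3g at 77.0 (36.3 to 120) and Cd3e at 64.1 (46.8 to 81.2). Cd4 lay among them by its mean of 82.7, but it had the widest range by fold of the 8 abundant genes, from 10.1 to 151. Each neighbouring pair in this order from Thy1 to Cd3e had overlapping ranges. Cd247 was lower, at 19.5 CPM per kb (14.98 to 26.5), below the other 3 CD3 genes in every library. Cd2, at 1.26 (0 to 3.13), and Cd5, at 0.160 (0 to 0.324), were close to absent.

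**Figure D1:**
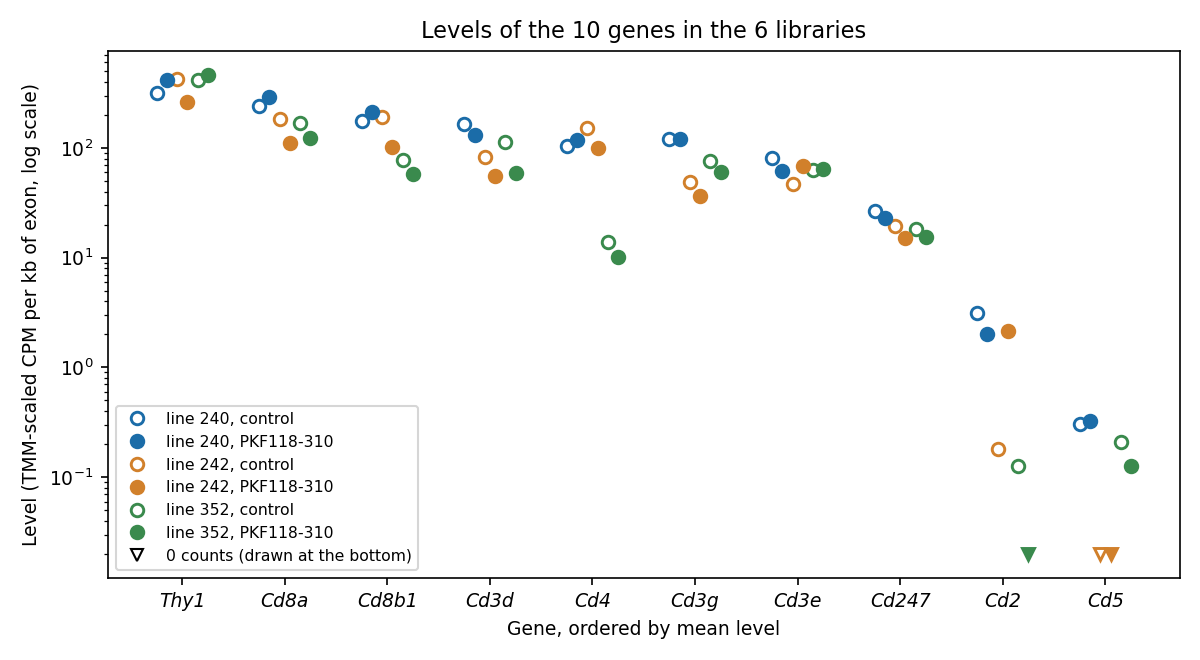
Levels of the 10 genes in TMM-scaled CPM per kb of exon on a log axis, with 1 point per library (open, control; filled, PKF118-310; colour, line), and libraries with 0 counts drawn as triangles at the bottom. Cd4 in line 352 (10.1 and 14.0) lies below the other 4 libraries (100 to 151), and Cd2 and Cd5 lie below the other 8 genes in all libraries.

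Cd4, at 124864692 to 124888221 on the reverse strand of chromosome 6, differed most between the lines among the 8 abundant genes. Its control levels were 417, 608 and 56.4 CPM for lines 240, 242 and 352, and its levels after PKF118-310 were 473, 405 and 40.7 CPM. Both libraries of line 352 were thus far below the other 4, although 765 and 583 counts showed that the transcript was present. The log2 difference of line 352 from line 240 was -3.23 ± 0.28 (SE; edgeR quasi-likelihood adjusted p = 0.0146), and from line 242 it was -3.38 ± 0.29 (edgeR quasi-likelihood adjusted p = 0.0144). Of 10331 genes tested, 4.38% were called in either direction between lines 352 and 240 and 2.05% as lower in line 352, and 7.24% and 3.73% between lines 352 and 242. Cd4 was the 1 member among the 9 tested that was called in these contrasts. Between lines 240 and 242, Cd4 differed by -0.16 ± 0.26 on the log2 scale (edgeR quasi-likelihood adjusted p = 0.834). In bulk RNA, fewer cells with a transcript and less of it per cell cannot be told apart.

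Cd8a and Cd8b1, which encode the α and β chains of CD8, lie 35932 bases apart on chromosome 6, at 71373427 to 71379173 and 71322788 to 71337494, both on the forward strand. Cd8a was at 879, 671 and 614 CPM in the controls of lines 240, 242 and 352, and at 1068, 403 and 446 CPM in the treated libraries. The range of line 352 lay within that of line 242, and both libraries of line 240 were above all others. Cd8b1 had control levels of 260, 284 and 116 CPM and treated levels of 317, 152 and 86.6 CPM, so both libraries of line 352 were below the other 4. For Cd8b1 the log2 difference of line 352 was -1.55 ± 0.32 from line 240 (edgeR quasi-likelihood adjusted p = 0.0716) and -1.11 ± 0.32 from line 242 (edgeR quasi-likelihood adjusted p = 0.0949). Neither passed the threshold of 0.05. Without the treated library of line 242 they were -1.52 ± 0.15 (adjusted p = 5.29e-05) and -1.48 ± 0.19 (adjusted p = 0.000344) in the same test. Leaving that library out raised the calls over all genes as well, to 46% of 10819 genes for line 352 against line 240 and to 45.6% against line 242.

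Both libraries of line 352 lay below the other 4 for 3 of 9 members tested (Cd4, Cd8b1 and Cd2), where 18.4% of all genes tested did so. For Cd2 the order of lines 352 and 242 rests on 0 to 3 counts per library, within the counting limit, and is not a measured difference. Within a library, the ratio of Cd4 to Cd8a per kb was 0.428, 0.818 and 0.0830 in the controls of lines 240, 242 and 352. After PKF118-310 it was 0.399, 0.906 and 0.0824. The ratio of Cd8b1 to Cd8a was 0.725, 1.04 and 0.463 in the controls and 0.727, 0.927 and 0.476 in the treated libraries. Each line thus kept a ratio near its own control value while the lines differed. The mean log2 change of the ratio with treatment was 0.01 ± 0.13 for Cd4 to Cd8a and -0.04 ± 0.11 for Cd8b1 to Cd8a (SD, n = 3 lines; exact 2-sided paired permutation p = 1 for both). With 3 pairs this test cannot give a p below 0.25.

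**Figure D2:**
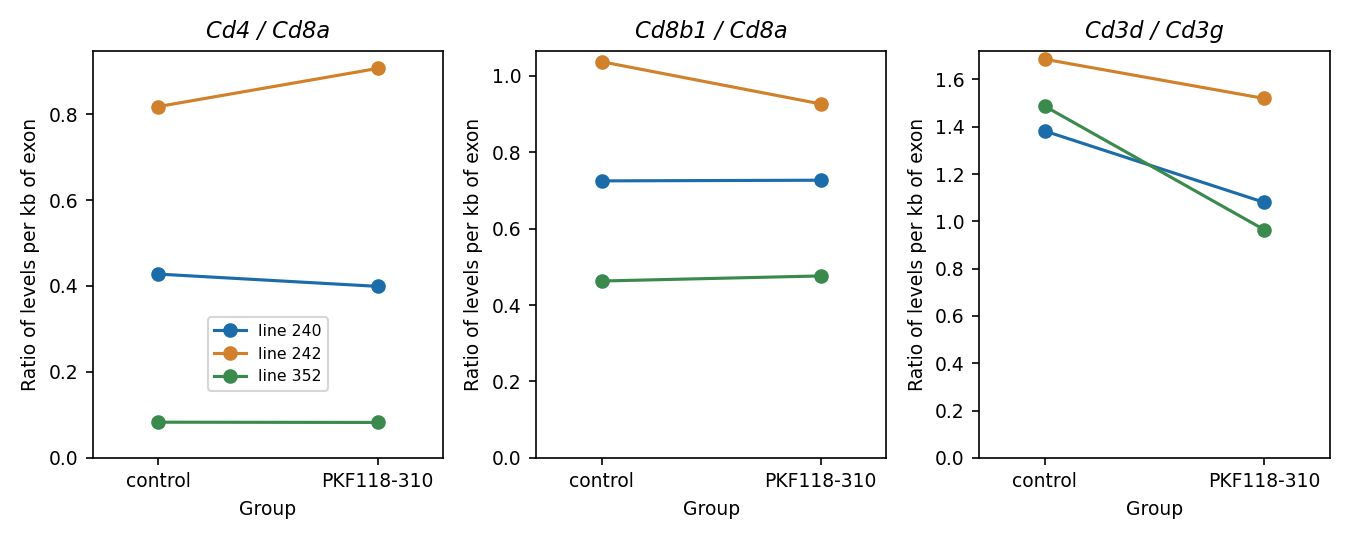
Ratios of the levels per kb of exon of Cd4 to Cd8a, Cd8b1 to Cd8a and Cd3d to Cd3g in each library (y axis from 0; x axis, group), with a line joining the control and PKF118-310 library of each cell line. For the coreceptor ratios the 3 lines are separate and nearly level (Cd4 to Cd8a in line 352, 0.0830 and 0.0824), while Cd3d to Cd3g is lower after treatment in each line.

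Among the CD3 genes, Cd3g, the γ chain, had levels of 390, 161 and 248 CPM in the controls of lines 240, 242 and 352 and of 393, 119 and 199 CPM in the treated libraries, so the lines were ordered 240, 352, 242 in both groups. A test over all 3 lines called 5.32% of the 10331 genes, and 2 of the 9 members tested: Cd4 (edgeR quasi-likelihood adjusted p = 0.0187) and Cd3g (edgeR quasi-likelihood adjusted p = 0.0474). The call of Cd3g was lost without either library of line 240 or of line 352 (adjusted p from 0.139 to 0.247), while that of Cd4 held without any 1 library. The pair with the largest Cd3g difference, line 240 against line 242, had a log2 difference of 1.49 ± 0.21 that missed the threshold in its own contrast (edgeR quasi-likelihood adjusted p = 0.0824), where 0.397% of genes and 0 members were called. In that contrast 1347 genes had an unadjusted p below 0.05, and DESeq2 called 379 genes, among them Cd3g and Cd3d. Cd3d, the δ chain, had a difference of 1.12 ± 0.23 in the edgeR test (adjusted p = 0.160).

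Without the treated library of line 242, the test over lines called 8 of the 9 members, all but Thy1, against 56.7% of 10819 genes. In that setting line 352 was called lower than line 240 for 7 of 9 members, and Cd3e and Thy1 were not called. Of 10819 genes, 2325 were called lower there, and 46% were called in either direction. Against line 242, with 45.6% of genes called, 4 of 9 members were, and line 352 was lower for Cd4 and Cd8b1 and higher for Cd3e (0.51 ± 0.17, edgeR quasi-likelihood adjusted p = 0.0364) and Cd3g (0.52 ± 0.15, edgeR quasi-likelihood adjusted p = 0.0210). Line 240 was above the control library of line 242 for Cd3d, Cd3e and Cd3g, by 1.12, 0.66 and 1.33 on the log2 scale. It was below that library for Cd4 (-0.41) and Thy1 (-0.39). The median of the members was 0.56, beside 0.00 for all genes. With line 242 left out altogether, line 352 was again lower than line 240 for 7 of 10 members tested, where 19.9% of 11760 genes were called lower. The median log2 difference of the members between these lines was then -0.85, beside 0.03 for all genes.

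Cd3d was the 1 member that passed a test of PKF118-310 against control. It went from 299 to 236 CPM in line 240, from 151 to 100.2 CPM in line 242 and from 205 to 107 CPM in line 352. The treated level was lower in each line, although the groups overlapped because line 240 was high in both. Within lines the log2 changes were -0.34, -0.59 and -0.94 for lines 240, 242 and 352, with 95% counting intervals of -0.48 to -0.21, -1.02 to -0.18 and -1.03 to -0.85. In the test over 3 lines the change of -0.63 ± 0.18 missed the threshold (edgeR quasi-likelihood adjusted p = 0.842). That test called 0 of 10331 genes (0%), with 570 at an unadjusted p below 0.05 and 45 called by DESeq2, none of them a member. In lines 240 and 352 alone, Cd3d fell by 0.66 ± 0.14 on the log2 scale (edgeR quasi-likelihood adjusted p = 0.00931), 1 of the 5.92% of 11760 genes that were called lower. The call was lost with a stricter filter on low counts (adjusted p = 0.0548) and when the 2 libraries of a line were not treated as a pair (-0.57, adjusted p = 0.9997).

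Cd3g and Cd3e, the neighbours of Cd3d, were not called in either treatment test. The Cd3g change within lines was 0.01, -0.44 and -0.32 (lines 240, 242 and 352). Its counting interval spanned 0 in line 240 and lay below 0 in line 242 (-0.84 to -0.06) and line 352 (-0.39 to -0.25). The fitted value for Cd3g was -0.24 ± 0.17 over 3 lines and -0.16 ± 0.12 without line 242. Cd3e, the ε chain, was at 331, 191 and 256 CPM in the controls and at 249, 280 and 261 CPM after treatment, so it moved in opposite directions in lines 240 (-0.41) and 242 (0.55) and by 0.03 in line 352. Its fitted change was 0.05 ± 0.23 over 3 lines and -0.19 ± 0.12 without line 242. The ratio of Cd3d to Cd3g per kb was 1.38, 1.69 and 1.49 in the controls and 1.08, 1.52 and 0.965 after PKF118-310. It was lower in each line, with a mean log2 change of -0.38 ± 0.24 (SD, n = 3 lines; exact 2-sided paired permutation p = 0.25, the smallest that 3 pairs can give). This ratio was computed after the Cd3d values were known. Against Cd3e, the Cd3d ratio was 2.03, 1.78 and 1.80 in the controls and 2.12, 0.804 and 0.917 after treatment, lower in 2 of 3 lines (exact 2-sided paired permutation p = 0.5).

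Cd247, the ζ chain, lies apart from the cluster on chromosome 1 at 165788681 to 165877277 on the forward strand. It was at 141, 104 and 96.4 CPM in the controls and at 122, 79.8 and 81.4 CPM in the treated libraries. These are lower values in each line (-0.22, -0.39 and -0.25 on the log2 scale), but the counting interval of line 242 spanned 0 (-0.88 to 0.07). The fitted change was -0.28 ± 0.14 over 3 lines (edgeR quasi-likelihood adjusted p = 0.842) and -0.24 ± 0.10 in lines 240 and 352 (edgeR quasi-likelihood adjusted p = 0.176). Cd247 overlaps Pou2f1, a gene on the opposite strand with 3889 counts over the 6 libraries against 3798 for Cd247, and how the counting used strand is not stated. Its ratio to the mean of Cd3d, Cd3e and Cd3g was 0.254 ± 0.064 in controls and 0.25 ± 0.030 in treated libraries (SD, n = 3; exact 2-sided paired permutation p = 1). Cd3d and Cd247 were the 2 of 9 members tested that were lower in all 3 lines, a pattern that 17% of all genes showed. All 3 treated libraries lay below all 3 controls for 0 members and for 2.87% of genes.

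The coreceptors changed differently in line 240 and in the other lines. For Cd4 the log2 changes in lines 240, 242 and 352 were 0.18, -0.59 and -0.47, for Cd8a they were 0.28, -0.74 and -0.46, and for Cd8b1 they were 0.28, -0.90 and -0.42. All 9 counting intervals left out 0, with line 240 above it and the others below. These intervals cover counting error only, and with 1 library per line and group the difference between lines was not tested. The fitted changes over 3 lines were -0.29 ± 0.22 for Cd4, -0.30 ± 0.26 for Cd8a and -0.32 ± 0.26 for Cd8b1, and without line 242 they were between -0.13 and -0.08. The tests called none of them (edgeR quasi-likelihood adjusted p from 0.845 to 0.853 over 3 lines, and from 0.615 to 0.782 without line 242).

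**Figure D3:**
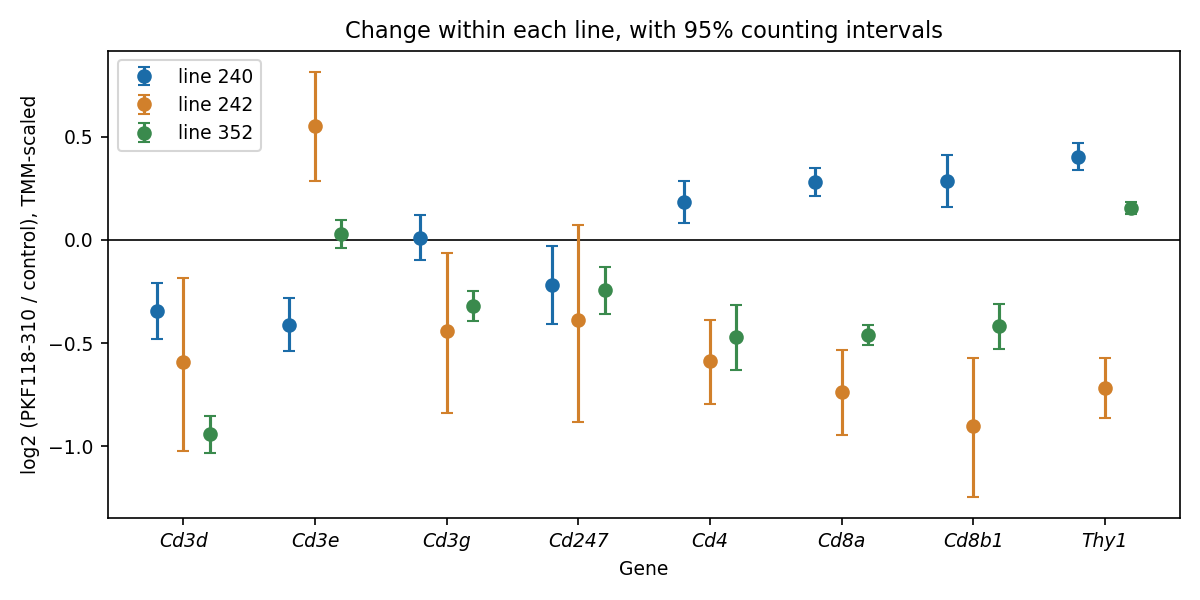
Log2 ratio of PKF118-310 to control in TMM-scaled level for the 8 abundant genes in each line, with bars for the exact 95% counting interval of the library pair. Cd3d lies below 0 in each line (-0.34, -0.59 and -0.94), whereas Cd4, Cd8a and Cd8b1 lie above 0 in line 240 and below it in lines 242 and 352.

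Thy1, a GPI-anchored surface glycoprotein at 44043384 to 44048579 on the forward strand of chromosome 9, was abundant in every library. Its levels were 948, 1278 and 1250 CPM in the controls and 1254, 778 and 1390 CPM in the treated libraries, with overlap between groups and lines. The fitted change with treatment was -0.05 ± 0.29 over 3 lines (edgeR quasi-likelihood adjusted p = 0.993) and 0.27 ± 0.13 in lines 240 and 352 (edgeR quasi-likelihood adjusted p = 0.216). Between lines Thy1 was not called (edgeR quasi-likelihood adjusted p = 0.727).

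Cd2, an adhesion receptor for CD48 in the mouse, and Cd5, a scavenger-receptor family protein that tempers receptor signaling, were near or below the counting limit. Cd2, at 101275899 to 101287939 on the reverse strand of chromosome 3, had control and treated counts of 22 and 11 in line 240, 1 and 2 in line 242, and 3 and 0 in line 352. Only line 240 was above 3 counts, at 5.46 and 3.51 CPM. Cd5, at 10718143 to 10738974 on the reverse strand of chromosome 19, had 6 and 5 counts in line 240, 0 and 0 in line 242, and 14 and 9 in line 352. It did not reach the count filter of the 3-line test, and its highest level was 1.59 CPM. Cd6, a related receptor from the list of other surface genes, had 0 to 14 counts. Neither member passed in the treatment tests that held it (edgeR quasi-likelihood adjusted p = 0.988 for Cd2 over 3 lines, 0.503 for Cd2 and 0.778 for Cd5 in lines 240 and 352).

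Across the members tested in 3 lines, 8 of 9 fitted treatment changes were negative, with a median of -0.28 beside 0.00 for all genes. In lines 240 and 352, where 10.9% of genes were called, 1 of 10 members was (Cd3d), and the median was -0.17 beside -0.01. The members share libraries and, for 3 of the CD3 genes and both CD8 genes, a locus.

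Other genes of the T-cell surface gave 0 of 23 tested calls with treatment over 3 lines. In lines 240 and 352, 0 rose and 2 of 26 fell, where 5.92% of all genes were called lower. Ly6d, a GPI-anchored antigen, fell by 0.86 ± 0.14 on the log2 scale (edgeR quasi-likelihood adjusted p = 0.00275). Ctla4, an inhibitory receptor with at most 35 counts in a library, fell by 3.26 ± 0.90 (edgeR quasi-likelihood adjusted p = 0.0369). Between lines the test over 3 lines called 5 of 23, beside 5.32% of all genes. Ly6d was high in line 352 (488 and 271 CPM) and had 0 to 13 counts in the other 4 libraries. Another 4 genes were lower in line 352 than in both other lines. Trac, the constant region of the receptor α chain, was at 3.84 and 5.52 CPM there against 16.6 to 33.4 CPM elsewhere (at most 26.7 CPM without the treated library of line 242). Trat1, a receptor-associated adaptor, was at 3.54 and 1.68 CPM against 37.1 to 62.0 CPM (at least 47.2 CPM without that library), and Cd48, the ligand of CD2, at 3.84 and 1.19 CPM against 26.5 to 32.8 CPM. Trbc1 had 4 and 0 counts in line 352, while Trbc2, the other β-chain constant gene, had 4291 and 4058. Trbc1 and Trbc2 are near-identical, so the split of reads between them is uncertain. The most abundant genes of the list per kb besides Ly6d and Trbc1 were Trbc2 and Cd24a, at mean levels of 666 and 401 CPM per kb.

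Of 12 genes that regulate the coreceptor loci, all were tested and 0 were called with treatment over 3 lines or in the test between lines. In lines 240 and 352, Zbtb7b, which encodes the CD4-lineage factor ThPOK, rose by 1.42 ± 0.31 on the log2 scale (edgeR quasi-likelihood adjusted p = 0.0130), from 3 to 13 counts in line 240 and from 112 to 287 in line 352. Ets1, a transcription factor of T-cell genes, fell by 0.63 ± 0.13 (edgeR quasi-likelihood adjusted p = 0.00947), and Ikzf1, which encodes Ikaros, fell by 0.41 ± 0.12 (edgeR quasi-likelihood adjusted p = 0.0419). Gata3, a factor of CD4-lineage development, was higher in line 352 than in line 240 by 1.08 ± 0.17 (edgeR quasi-likelihood adjusted p = 0.0435). Per kb the most abundant regulators were Ikzf1, Tcf3 (an E-protein gene) and Ets1, with means of 64.1, 55.8 and 52.6 CPM per kb. Of the lineage markers, Cd40lg was at 0 in every library, Nkg7 at 0.148 CPM or less, and Runx3 at 0.0738 to 24.1 CPM (at most 5.95 CPM without the treated library of line 242).

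Stage markers were compared with the coreceptor values. Of 7 double-positive markers, 3 were called in the test between lines, where 5.32% of all genes were called. Ccr9, a chemokine receptor, was at 0.369 and 1.12 CPM (5 and 16 counts) in line 352. It was at 58.8 to 414 CPM in the other 4 libraries (at most 259.6 CPM without the treated library of line 242). The recombinase gene Rag2 was at 65.5 and 53.9 CPM in line 240 and between 4.75 and 8.41 CPM elsewhere. It was the 1 gene of the list called in line 240 against line 242 (3.53 ± 0.36, edgeR quasi-likelihood adjusted p = 0.0475), where 0.397% of genes were called. Line 242 had 18 counts of Rag2 in its control (5.66 CPM). Its treated library had 3 counts, which is at the counting limit. Cd1d1, which encodes the molecule that selects NKT cells, was higher in line 352 than in line 242 by 1.66 ± 0.28 (edgeR quasi-likelihood adjusted p = 0.0408). Rag1 was at 337 and 173 CPM in line 352, 1448 and 239 CPM in line 242, and 1097 and 1098 CPM in line 240, and Dntt, which encodes terminal transferase, was at 121 to 585 CPM over all libraries. Both were thus present in every library, line 352 included. With treatment in lines 240 and 352, Ccr9 rose by 2.10 ± 0.17 (edgeR quasi-likelihood adjusted p = 4.22e-05) and Dntt fell by 1.27 ± 0.30 (edgeR quasi-likelihood adjusted p = 0.0179).

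Of 6 double-negative markers, 5 were tested between lines and 1 was called, where 5.32% of all genes were called. Dtx1, a Notch target, was at 537 and 459 CPM in line 352, 216 and 189 CPM in line 240, and 32.7 and 11.1 CPM in line 242. In line 352 against line 242 the difference was 4.39 ± 0.37 for Dtx1 (edgeR quasi-likelihood adjusted p = 0.0141) and 2.92 ± 0.47 for Hes1, another Notch target (edgeR quasi-likelihood adjusted p = 0.0386). Ptcra, which encodes the pre-T α chain, was at 161 and 96.5 CPM in line 352, 94.5 and 133 CPM in line 240, and 17.3 and 0 CPM in line 242, and did not pass. Cd44 was at 55.2 to 394 CPM (at most 229.6 CPM without the treated library of line 242). Kit and Il2ra, which define the earliest stages, were at 6.08 CPM or less, apart from Kit at 27.8 CPM (15 counts) in the treated library of line 242. Of 6 single-positive markers, 4 were tested between lines and 0 were called. Ccr7, a receptor of mature thymocytes, was at 0.319 CPM or less. S1pr1, the egress receptor, had 303 and 129 counts in line 352 and 0 or 1 in the other 4 libraries. In lines 240 and 352 it was called lower with treatment (-1.31 ± 0.32, edgeR quasi-likelihood adjusted p = 0.0242). That change rests on 1 pair of libraries, since S1pr1 had 0 counts in line 240. Lines 240 and 242 therefore had Cd4, Cd8a, Cd8b1, Rag1 and Ccr9 together in their controls. Line 352 had Cd8a, Rag1, Dntt and Ptcra with Cd4, Cd8b1 and Ccr9 below their levels in the other 2 lines. Within each group Rag1 was also lowest in line 352, but it was not called between lines. Dntt was similar in the controls, at 585, 573 and 548 CPM in lines 240, 242 and 352. The Ptcra ranges of lines 240 and 352 overlapped. Cd1d1, another double-positive marker, was at 36.2 and 41.4 CPM in line 352 against 11.1 to 15.6 CPM in the other lines. Arpp21, also from that list, was at 290.5, 123 and 313.6 CPM in the controls of lines 240, 242 and 352. Of the 7 double-positive markers, 3 were called lower in line 352 than in line 240 and 0 higher, where 2.05% of genes were lower. Against line 242, 1 was called lower and 1 higher, where 3.73% of genes were lower and 7.24% were called in either direction. A level of RNA in bulk sets no limit between CD4+ and CD4- cells, so the double-positive label of line 352 was not decided by these values. By flow cytometry the study found its tumor cells double positive for the CD4 and CD8 proteins. The legend of that figure names lines 240 and 242 and does not name line 352.

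**Figure D4:**
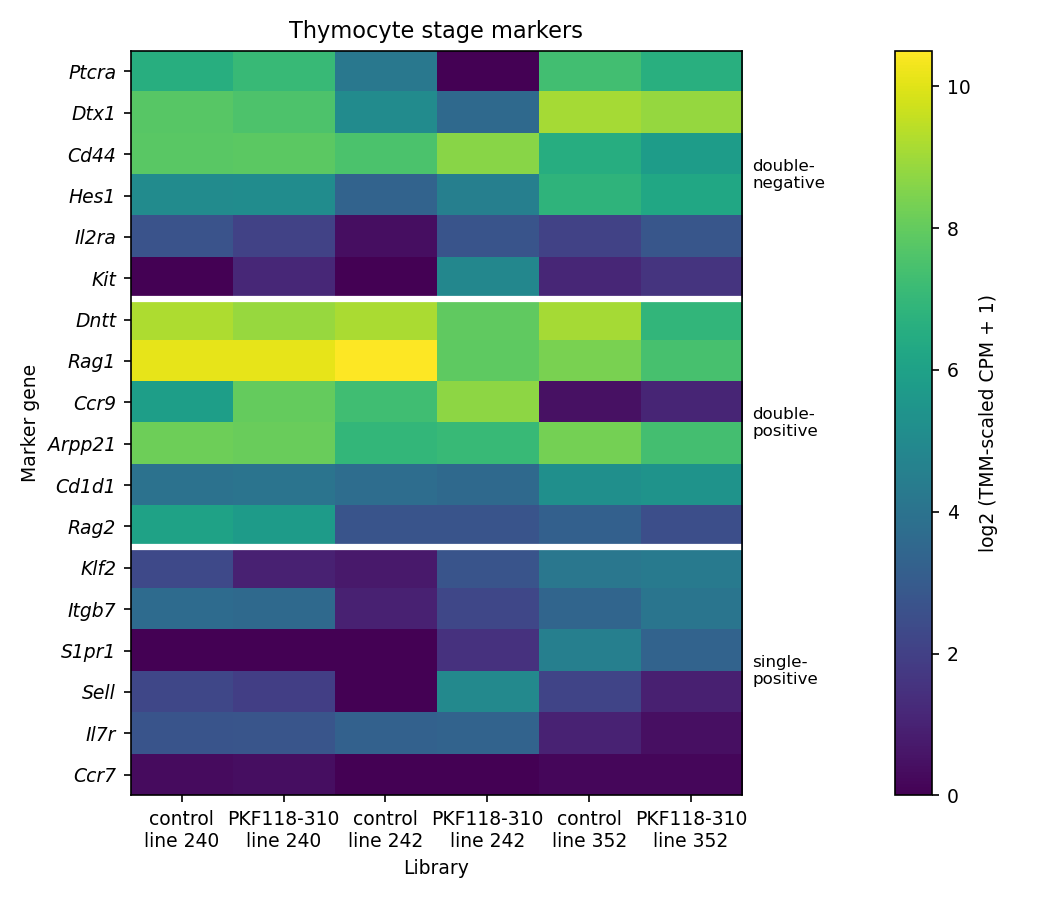
Log2 of TMM-scaled CPM plus 1 (colour) for 18 of the thymocyte stage markers (rows, in blocks of double-negative, double-positive and single-positive markers) in the 6 libraries (columns). Ccr9 is low in both columns of line 352, Dtx1 and Hes1 are high there, and Ccr7 is near 0 in every column.

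Markers of other cells were measured beside these values. The summed level of 5 B-cell markers was 0 to 0.496 CPM in controls and 1.33 to 83.5 CPM in treated libraries, the highest coming from Pax5 (43 counts) in the treated library of line 242. Pax5 passed in lines 240 and 352 (4.27 ± 1.21, edgeR quasi-likelihood adjusted p = 0.0412) with 1 and 7 counts in line 240 (control and treated) and 0 and 16 in line 352. Stromal and epithelial markers (6 genes) summed to 0.248 to 1.25 CPM in controls and 1.68 to 52.0 CPM in treated libraries, again highest in line 242. The 5 myeloid markers summed to 10.4 to 44.0 and 10.2 to 52.0 CPM, mostly from Itgam and highest in the treated library of line 242, with Lyz2 at 0 throughout. The 5 dendritic-cell markers summed to 1.26 to 30.0 and 3.71 to 24.5 CPM, mostly from H2-Ab1, which was higher in line 352 than in line 242 by 4.79 ± 0.57 (edgeR quasi-likelihood adjusted p = 0.0232), with Xcr1 and Siglech at 0. Of the remaining lists, 4 NK-cell markers summed to at most 2.23 CPM (Ncr1 and Klrd1 at 0), 4 erythroid markers to at most 0.148 CPM and 6 γδ T-cell markers to at most 5.97 CPM. Their part in the members' values was not tested.

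Among 7442 genes of at least 20 CPM, the genes with the pattern most like Cd4 over the 6 libraries were Elf1, an Ets-family factor (Pearson r = 0.9945), Syt14 (r = 0.9942) and Nebl (r = 0.9926). Elf1 spanned only 129 to 208 CPM, and Syt14 and Nebl were at 0.885 CPM or less in line 352. Most like Cd8a were Pxk (r = 0.9914), Cept1 (r = 0.9871) and H6pd (r = 0.9852), which were at 18.4 to 24.9, 37.1 to 48.8 and 35.3 to 79.1 CPM. The 6 points are 3 pairs that share a line, and the genes were the closest of many, so these correlations describe the libraries only.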

How the data were processed

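The study made poly(A)-selected, stranded RNA-seq libraries from control and PKF118-310-treated cells of 3 lines. The authors deposited raw counts per gene, 1 file per library and lane, with no normalization. HISAT2, HTSeq, edgeR and mm10 are named in the submitters' processing notes, whereas the study's methods name TopHat. No version, annotation or strand setting of the counting is given in the sources used. The 2 lanes of each of the 6 libraries were summed. Chi-square per degree of freedom between lanes, over genes with at least 10 counts, was 0.982 to 1.02 in lines 240 and 242 and 2.01 to 2.05 in line 352, and each library was counted as 1 sample.

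All genes kept by filterByExpr were scaled by TMM and tested in edgeR 4.0.16 (R 4.3.3) with the quasi-likelihood F test, Benjamini-Hochberg adjusted over all genes tested, with a threshold of 0.05. Treatment was fitted with line as a block, since each line comes from a different animal; libraries of a line deviated together from the group means (correlations of 0.67, 0.30 and 0.79 for lines 240, 242 and 352). Lines were compared with treatment as a term. The standard error (SE) is the log2 change divided by the root of F. Counting intervals within a line are exact 95% binomial intervals and cover counting error only, as do limits on a count of 0. Exon lengths are the union of exons in GENCODE vM21, in which 48108 of the 52535 symbols matched. Tests were checked on simulated counts. The simulation gave every gene the same spread and held no library that stood apart, so it does not cover the treated library of line 242.

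The 10 genes, the marker lists and the fit without line 242 were chosen with earlier results of these data known. All 10 genes are named; from each list, up to 4 genes with the highest level per kb and those that passed could be named. Cd6, Kit, Il2ra, Ccr7 and marker genes at or near 0 were named after their values were seen. Some genes of the lists are not reported here. Alternatives were DESeq2 1.42.0, its size factors, library totals, other filters, single lanes, no block or no treatment term, and each library or line left out. Halved counts for line 352 and line 352 against line 240 without line 242 were added after the data were seen.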

Additional observations from a re-analysis of the deposited data

Results flagged for a closer look

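There were 5 genes that changed in opposite directions with PKF118-310 in different lines, by counting intervals of library pairs that left out 0. A line has 1 library per group, so the difference between lines was not tested, and line 242 holds the shallow treated library. On the log2 scale Cd4 changed by 0.18 in line 240, -0.59 in line 242 and -0.47 in line 352. For Cd8a the values were 0.28, -0.74 and -0.46, and for Cd8b1 they were 0.28, -0.90 and -0.42. Thy1 changed by 0.40 and 0.15 in lines 240 and 352 and by -0.72 in line 242. Cd3e changed by -0.41 in line 240 and by 0.55 in line 242.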

How the results depend on the processing

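The difference of Cd4 between line 352 and both other lines passed under each scaling, filter and tool tried and with each library left out. Counts of calls moved more. Between all lines, 550 genes and 2 members were called; DESeq2 gave 1665 and 5, no filter 3009 and 5, no treatment term 917 genes, and leaving out a library 392 to 6391 genes and 1 to 8 members. For line 240 against 242 (41 and 0) DESeq2 gave 379 and 2, no filter 775 and 2, no treatment term 129 and 1, a stricter filter 65 genes, and leaving out a library 34 to 2571 and 0 to 5. For line 352 against 240 (452 and 1) DESeq2 gave 1141 and 6, no filter 1757 and 3, no treatment term 2 members, leaving out line 242 gave 5257 and 7, and leaving out a library 179 to 5080 and 1 to 7. For line 352 against 242 (748 and 1) DESeq2 gave 1565 and 2, no filter 2607 and 2, and leaving out a library 226 to 4934 and 1 to 4. The most calls in each came without a library of line 242; the cause was not tested.

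Treatment over 3 lines called 0 genes, against 45 with DESeq2, 312 with no filter and 3 to 1285 with a line left out (members 0 to 1). In lines 240 and 352 (1285 and 1) DESeq2 gave 265, halved counts of line 352 gave 635, lane 2 alone gave 753, a stricter filter gave 547 and 0, and the fit with no replicate block, which ignores the pairing, gave 0 and 0. No line could be left out of that fit, since 1 pair has no residual degrees of freedom. With the longest transcript in place of exon length, the Cd247 ratio was 0.355 in controls and 0.338 in treated libraries.

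Values that had not passed changed sign in some settings. With no replicate block the treatment change was 0.046 for Cd2 over 3 lines, and 0.11 for Cd4, 0.016 for Cd8a and 0.096 for Cd8b1 in lines 240 and 352. Over 3 lines Cd3e was -0.040 with no filter and -0.015 in lane 2. For line 352 against 242, Cd247 and Cd8a were 0.068 and 0.11 with library totals, a scaling that moved the median of all genes to 0.15, and 0.13 and 0.18 with no filter. With a line left out, the treatment change ran from -0.99 to 0.50 for Cd2, -0.19 to 0.24 for Cd3e and -0.32 to 0.27 for Thy1. With a library left out, line 240 against 242 ran from -0.24 to 4.15 for Cd2, -0.037 to 0.67 for Cd3e, -0.50 to 0.19 for Cd4, -0.0043 to 0.92 for Cd8b1 and -0.39 to 0.66 for Thy1. Line 352 against 240 ran from -0.51 to 0.19 for Cd3e and -0.055 to 0.61 for Thy1, and line 352 against 242 from -0.15 to 0.069 for Cd247, -0.17 to 0.51 for Cd3e, -0.33 to 0.38 for Cd8a and -0.12 to 0.94 for Thy1.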
